A study of Mus musculus with 6 samples.

Results

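The genes described here are 9 forkhead transcription factors, Foxb1, Foxa1, Foxa2, Foxj1, Foxo1, Foxo3, Foxp1, Foxp2 and Foxk1, taken by their symbols from the 23282 genes listed in the count files. They were measured in the forebrain of male C57BL/6J mice of wild-type genotype, aged 8 to 10 weeks, that received normal chow (NCD, 3 libraries) or a high-fat diet with 60 kcal% fat (HFD, 3 libraries) for 10 days. One hemisphere without olfactory bulb and cerebellum gave the RNA for QuantSeq 3′ sequencing, in which reads lie near the 3′ end of a transcript, so a count follows the number of transcripts captured and not their length. The question was whether the short HFD shifted the transcript levels of these regulators. In bulk tissue, fewer cells of a type and less RNA per cell cannot be told apart.

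Forkhead factors bind DNA through a conserved winged-helix domain, and the members differ in the cells they specify. Foxb1 marks the mammillary and other diencephalic neurons, Foxa1 and Foxa2 are pioneer factors of midbrain dopamine neurons and of endodermal organs such as liver, and Foxj1 switches on the program of motile cilia. Foxo1 and Foxo3 are held out of the nucleus when insulin signalling through AKT is active. Foxp1 and Foxp2 are repressors of striatal and cortical projection neurons. Foxk1 acts with the SIN3 corepressor on genes of autophagy, and it also regulates genes of glycolysis.

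Forkhead genes share the part of the domain that reads the DNA base sequence. The coding sequences of Foxb1, Foxo3 and Foxk1 show this for members with different roles. They are a stretch of 10 codons in the region of the recognition helix, placed by aligning GENCODE vM21 coding transcripts (GRCm38), and are written 5′ to 3′ on the coding strand. Capitals mark the 20 of 30 bases that are identical in these 3 genes.
Foxb1: TGGcAGAACagccTgCGcCACAAtCTcTCc
Foxo3: TGGaAGAACtccaTcCGgCACAAcCTgTCc
Foxk1: TGGcAGAACtctaTcCGaCACAAcCTcTCt
Foxo3 and Foxk1 each shared 22 of the 30 bases with Foxb1. In Foxb1 the stretch lies in exon 2 on the minus strand (chr9:69760049-69760078). It is split by an intron between exons 2 and 3 in Foxo3 and between exons 4 and 5 in Foxk1.

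The libraries held between 6842785 and 9689372 counts. A count of 3, the floor used here, corresponds to 0.316 to 0.431 CPM, which are counts scaled to library totals adjusted by the TMM factor of edgeR, and covers counting error only. The labels do not say that each library came from a separate mouse, so p-values measure the spread between these libraries. HFD replicate 3 stood apart from the others in pituitary transcripts, with 1090 CPM of growth hormone (Gh) against 1.31 to 7.65 CPM in the other 5 libraries and 131 CPM of prolactin (Prl) against at most 0.538 CPM. The pituitary list of 10 genes had 2 genes tested, and its summed level was 4.93 to 9.15 CPM in the NCD libraries and 2.29, 3.31 and 1263 CPM in the HFD libraries. The part of this RNA in the results was not tested, and the forkhead differences are therefore also given without HFD replicate 3.

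Of the 9 genes, 7 passed the count filter of edgeR, while Foxa1 and Foxo3 were at or near the floor and were not tested. Foxb1 and Foxa2 passed through their NCD libraries alone, since no HFD library reached the level the filter asks for, so a lower HFD value was built into their passing. All 7 log2 fold changes were negative, as were those of 50.6% of the 13771 genes tested. For Foxb1 and Foxa2 this sign was fixed by how they passed the filter. The median of the 7 was −0.31 against −0.0025 over all genes tested. It was −0.18 without NCD replicate 3 and −0.19 without HFD replicate 3, and it includes Foxb1 and Foxa2. Foxb1, Foxa2 and Foxo1 passed 0.05 before adjustment in the quasi-likelihood test of edgeR, all in the direction of lower HFD values, a call that 1.98% of all genes received. In these 3 genes every HFD library was below every NCD library, which held for 4.49% of all genes. The filter asks for its level in 3 libraries, so for Foxb1 and Foxa2 this separation was fixed by their passing and adds nothing. Foxb1 and Foxa2 were lower by at least 1.5-fold as well, as were 0.748% of all genes. Both are among the genes that the study selected as lower in these same libraries, so their direction here is not independent evidence. None of the 9 genes passed the Benjamini-Hochberg adjusted threshold of 0.05, and neither did any other gene (0% of genes in edgeR, with 507 genes, or 3.68%, at an unadjusted p under 0.05, and 2 genes adjusted in DESeq2). The adjusted p was 0.979 for each of the 7.

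**Figure D1:**
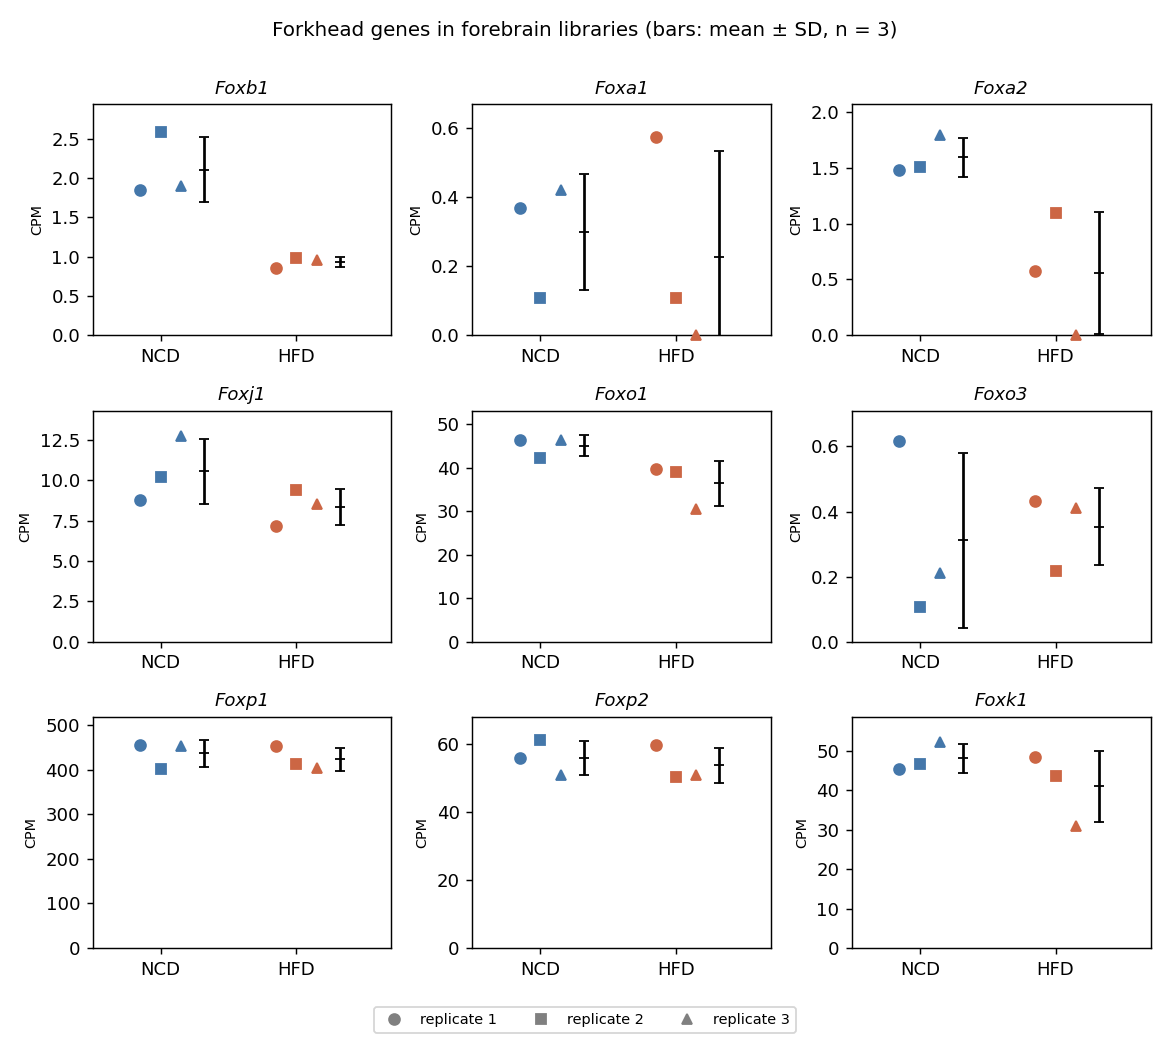
CPM of the 9 forkhead genes in each library (points, shaped by replicate number; blue NCD, orange HFD), with the mean ± SD of 3 libraries beside them. Foxb1, Foxa2 and Foxo1 have all HFD points under all NCD points, Foxa1 and Foxo3 lie near the floor, and the others overlap.

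Foxb1 (chr9:69757710-69760940, minus strand) was counted 15, 24 and 18 times in the NCD libraries, given in the order of replicates 1, 2 and 3 here and throughout, and 6, 9 and 7 times in the HFD libraries. These correspond to 1.85, 2.58 and 1.89 CPM under NCD and to 0.862, 0.982 and 0.961 CPM under HFD. The HFD libraries lay close together and below all NCD libraries. The mean was 2.11 ± 0.412 CPM (SD, n = 3) in NCD and 0.935 ± 0.0638 CPM (SD, n = 3) in HFD libraries. The log2 fold change was −1.16 (SE 0.45, 95% interval −2.12 to −0.20, unadjusted p = 0.0205), or 0.448-fold. The exact two-sided permutation test on CPM gave p = 0.1, the smallest value that 3 libraries against 3 allow. That value was fixed by how Foxb1 passed the filter. Without HFD replicate 3 the log2 fold change was −1.18 (unadjusted p = 0.0459). Leaving out NCD replicate 2, the highest library, gave −0.98 (unadjusted p = 0.092).

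Foxb1 reads can be compared with those of an antisense gene. B230323A14Rik shares 418 exon bases with Foxb1 on the opposite strand (chr9:69758740-69759157), with the near edge 1030 bases from the 3′ end of Foxb1. Its counts were 6, 9 and 9 in NCD and 10, 1 and 1 in HFD libraries. They differed from the counts of Foxb1 in all 6 libraries, and in HFD replicate 1 the antisense gene had more counts than Foxb1. Strand use in the counting is not given in the sources used here, so reads in the shared stretch cannot be assigned to either gene. Foxp3 and Ccdc22, which also overlap on opposite strands, had equal counts in 5 of the 6 libraries, as described below. The Foxb1 counts may therefore include reads of the antisense gene.

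Among markers of mammillary, subthalamic and caudal hypothalamic neurons, where Foxb1 is known from, 7 of 15 were tested and 0 had an unadjusted p under 0.05. Their log2 fold changes ran from −0.84 (Irx5) to 0.26 (Lhx5) with a median of 0.05. The summed level was 61.2 to 71.8 CPM in NCD and 64.7 to 74.2 CPM in HFD libraries. Its most abundant members were Lmo3, with a log2 fold change of 0.11, and Irx3, with −0.13, while Otp and Nkx2-4 were at 0 in all libraries. Without HFD replicate 1 the median was −0.38. Of the thalamic markers, all 12 were tested, with a median of −0.07, and without HFD replicate 3 the median was 0.03. Synpo2 was the one with an unadjusted p under 0.05 (log2 fold change 1.06, unadjusted p = 0.008). It was higher, at 5.32, 4.25 and 4.94 CPM in HFD against 1.97, 3.34 and 1.58 CPM in NCD libraries. The study also named it as higher in these same libraries, so its direction here is not independent evidence. Rora and Tcf7l2, the most abundant, had log2 fold changes of −0.0025 and −0.16, and Tcf7l2 was lowest in HFD replicate 3 at 111 CPM against 137 to 194 CPM elsewhere. The thalamic sum was 732 to 891 CPM in NCD and 686 to 861 CPM in HFD libraries. The summed levels of both lists overlapped between the diets, and the part of cell numbers in the Foxb1 values was not tested.

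Foxa2 (chr2:148042877-148046969, minus strand) had 12, 14 and 17 counts in NCD and 4, 10 and 0 counts in HFD libraries. The levels were 1.48, 1.51 and 1.79 CPM under NCD and 0.575, 1.09 and 0 CPM under HFD. The NCD libraries were close together, whereas the HFD libraries ranged from none to near the NCD values and did not overlap with them. The mean was 1.59 ± 0.171 CPM (SD, n = 3) in NCD and 0.555 ± 0.546 CPM (SD, n = 3) in HFD libraries. Foxa2 had a log2 fold change of −1.42 (SE 0.65, 95% interval −2.79 to −0.05, unadjusted p = 0.043), or 0.373-fold, with p = 0.1 in the exact permutation test. The permutation p was fixed by how Foxa2 passed the filter. The size of the difference depended on single libraries. Leaving out HFD replicate 3, which had no Foxa2 count, gave −0.89 (unadjusted p = 0.156), and leaving out HFD replicate 2 gave −2.44 (unadjusted p = 0.0135).

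Foxa1 (chr12:57540628-57546916, minus strand), the close relative of Foxa2, had 3, 1 and 4 counts in NCD and 4, 1 and 0 counts in HFD libraries. The groups overlapped at or near the floor, and a difference between the diets was not detectable at these counts.

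Markers of midbrain dopamine neurons, in which Foxa1 and Foxa2 act, were read beside Foxa2. Of 16 markers, 13 were tested, and 11 had a negative and 2 a positive log2 fold change. The median was −0.21, and −0.07 without HFD replicate 3 or without NCD replicate 3 and −0.36 without HFD replicate 1. Gch1, which makes the cofactor of dopamine synthesis, was at 3.33, 3.98 and 3.26 CPM in NCD and 1.73, 1.53 and 0.549 CPM in HFD libraries, with all HFD libraries lower (log2 fold change −1.46, unadjusted p = 0.00318, and −1.12 without HFD replicate 3). Th, the rate-limiting enzyme of dopamine synthesis, was at 12.3, 20.4 and 15.3 CPM in NCD and 8.62, 13.97 and 3.57 CPM in HFD libraries, and these overlapped (−0.85, unadjusted p = 0.016). Without HFD replicate 3 the value for Th was −0.48 (unadjusted p = 0.0567), without NCD replicate 2 it was −0.64 (unadjusted p = 0.0842), and without HFD replicate 2 it was −1.40. Both were lowest in HFD replicate 3, as was Foxa2. The study also named Gch1 as lower in these same libraries, so its direction here is not independent evidence. Nr4a2 and Calb2, the most abundant of the list, had log2 fold changes of −0.02 and −0.37, and both are also expressed by other forebrain neurons. The summed level of the list was 281 to 331 CPM in NCD and 303, 297 and 224 CPM in the HFD libraries. En1 and En2, genes of the midbrain and hindbrain, were picked after their values were seen. En1 had 27, 52 and 79 counts in NCD and 53, 33 and 13 counts in HFD libraries. En2 had 8, 15 and 56 counts in NCD and 20, 19 and 14 counts in HFD libraries, and was lowest in NCD replicate 1. The 2 positive log2 fold changes were 0.14 for Ret and 0.27 for Chrna6. The amount of midbrain tissue in each hemisphere cannot be told apart from the level of Foxa2 per cell.

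Foxa2 is also a liver gene, and the liver list was chosen after values had been seen in these libraries. Of its 11 genes, 7 were tested, and 5 (Alb, Apoa1, Apoa2, Ahsg and Fgb) had an unadjusted p under 0.05 in the direction of lower HFD values, a call that 1.98% of all genes received, with a median log2 fold change of −1.32 over the list. Without NCD replicate 2 the median was −0.78, Alb had −1.42 (unadjusted p = 0.00935), and Apoa1 (−0.35, unadjusted p = 0.436) and Apoa2 (−0.78, unadjusted p = 0.243) no longer passed 0.05. Apoa1 also missed 0.05 without HFD replicate 1 or 2, and Apoa2 without NCD replicate 1, HFD replicate 1 or HFD replicate 3. Alb was at 13.4, 26.8 and 3.89 CPM in NCD and 2.01, 5.46 and 1.78 CPM in HFD libraries. It was highest in NCD replicate 2 and lowest of the NCD libraries in NCD replicate 3, where Foxa2 was highest. Ttr and Trf, which the choroid plexus and oligodendrocytes express, made up most of the summed level of 1313 to 1565 CPM in NCD and 1364 to 1480 CPM in HFD libraries. The part of liver transcripts in the Foxa2 counts was not tested.

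**Figure D2:**
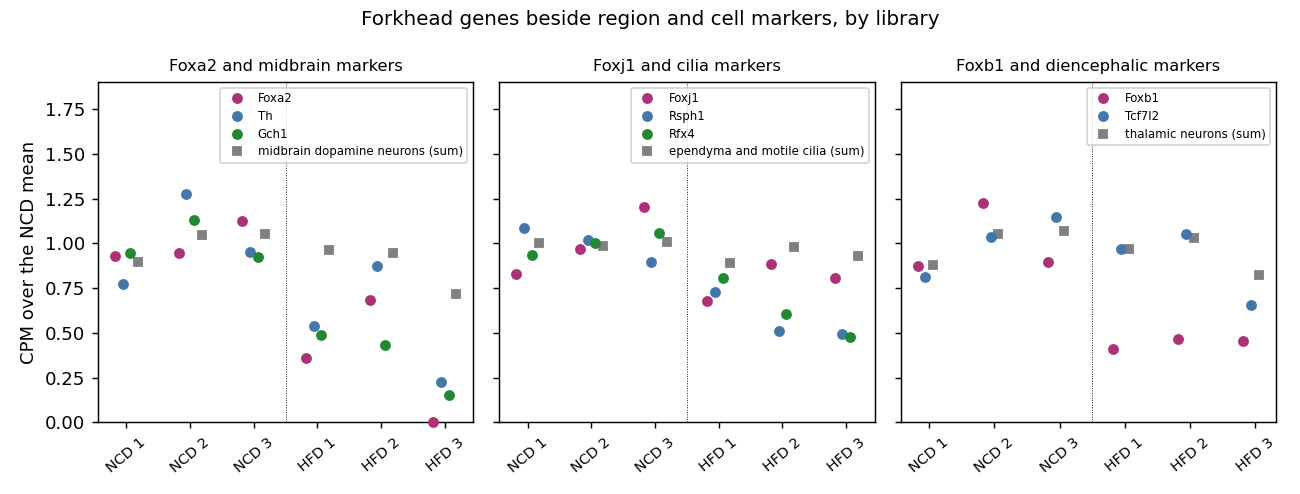
CPM of Foxa2, Foxj1 and Foxb1 in each library beside marker genes and the summed CPM of a marker list (grey squares), each divided by its mean over the 3 NCD libraries. Foxa2, Th and Gch1 are lowest in HFD replicate 3, and Rsph1 and Rfx4 are lower in all HFD libraries. Foxb1 is lower in all HFD libraries, and the thalamic sum lies lowest in HFD replicate 3. The marker genes shown were picked from their lists. Hydin and Synpo2, which were higher in all HFD libraries, are not shown. Neither are Ret and Chrna6, the tested midbrain markers with a positive log2 fold change.

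Foxj1 (chr11:116330704-116335399, minus strand) had 71, 95 and 121 counts in NCD and 50, 86 and 62 counts in HFD libraries. The levels were 8.75, 10.2 and 12.7 CPM under NCD and 7.19, 9.38 and 8.51 CPM under HFD. The groups overlapped, since HFD replicate 2 was above NCD replicate 1. The mean was 10.6 ± 2.01 CPM (SD, n = 3) in NCD and 8.36 ± 1.11 CPM (SD, n = 3) in HFD libraries. This gave a log2 fold change of −0.34 (SE 0.21, 95% interval −0.78 to 0.11, unadjusted p = 0.133), and p was 0.2 in the exact permutation test. Without HFD replicate 3 it was again −0.34, and with each library left out it stayed between −0.45 and −0.18.

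Genes of ependyma and motile cilia, the program that Foxj1 drives, had 19 of 25 listed genes tested. Of these, 13 had a negative and 6 a positive log2 fold change, with a median of −0.22 and a median of −0.03 without NCD replicate 3. Rsph1, a radial spoke protein of the axoneme, was at 8.13, 7.65 and 6.73 CPM in NCD and 5.46, 3.82 and 3.71 CPM in HFD libraries, with no overlap (log2 fold change −0.80, unadjusted p = 0.00684). Hydin, a protein of the central pair apparatus, was higher at 1.73, 3.71 and 2.06 CPM in HFD against 1.602, 1.08 and 1.05 CPM in NCD libraries (1.03, unadjusted p = 0.0353). Without HFD replicate 2 its value was 0.61 (unadjusted p = 0.287), and it also missed 0.05 without NCD replicate 2 or 3. The most abundant members, Dnali1 and Dnaic1, differed by 0.02 and 0.0028 on the log2 scale. The summed level was 156 to 159 CPM in NCD and 141 to 155 CPM in HFD libraries. Dnali1 alone gave 55.2 to 68.2 CPM of it in NCD and 60.3 to 65.5 CPM in HFD libraries.

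Among 11 regulators of ciliogenesis, 6 were tested, with 5 negative log2 fold changes and a median of −0.16. Rfx4, a member of the RFX factors that work with Foxj1 on ciliary genes, was at 13.7, 14.6 and 15.5 CPM in NCD and 11.8, 8.84 and 7.0 CPM in HFD libraries. All HFD libraries were lower (log2 fold change −0.67, unadjusted p = 0.00426). The study also named Rfx4 among the genes affected in these same libraries, so its difference here is not independent evidence. Rfx3 and Rfx1, the most abundant, had log2 fold changes of 0.09 and −0.11. The median was −0.34 without HFD replicate 1 and −0.07 without HFD replicate 2, and the summed level was 105 to 111 CPM in NCD and 93.6 to 112 CPM in HFD libraries.

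Foxo1 (chr3:52268336-52353221, plus strand) had 376, 392 and 441 counts in NCD and 276, 357 and 222 counts in HFD libraries. The levels were 46.3, 42.2 and 46.4 CPM under NCD and 39.7, 39.0 and 30.5 CPM under HFD. All HFD libraries were below all NCD libraries, by a narrow margin except for HFD replicate 3. The mean was 45 ± 2.40 CPM (SD, n = 3) in NCD and 36.4 ± 5.12 CPM (SD, n = 3) in HFD libraries. Foxo1 had a log2 fold change of −0.31 (SE 0.13, 95% interval −0.58 to −0.03, unadjusted p = 0.0334), or 0.809-fold, with p = 0.1 in the exact permutation test. Leaving out HFD replicate 3 gave −0.19 (unadjusted p = 0.113), and the other HFD libraries were still below the NCD libraries. Foxo1 shares 674 exon bases with an antisense gene, Gm20402, that lie 83799 bases from its 3′ end, away from where QuantSeq reads fall.

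Foxo3 (chr10:42181841-42276755, minus strand) had only 5, 1 and 2 counts in NCD and 3, 2 and 3 counts in HFD libraries. The groups overlapped at or near the floor, and no difference was detectable at these counts. The other FOXO genes had log2 fold changes of 0.01 (Foxo4) and 0.02 (Foxo6), and the diets overlapped for both.

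The insulin pathway that controls FOXO proteins was described with 21 genes for receptors, substrates and kinases, all of them tested. The median log2 fold change was −0.01, and 0.07 without HFD replicate 3. Akt1, the most abundant, had a log2 fold change of −0.18. The summed level was 1340 to 1403 CPM in NCD and 1317 to 1394 CPM in HFD libraries.

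Of 18 cofactors and modifiers of FOXO proteins, all were tested, with a median of 0.03. Xpo1, the exportin that carries FOXO proteins out of the nucleus, was at 42.9, 50.8 and 47.1 CPM in NCD and 33.6, 41.5 and 39.8 CPM in HFD libraries. All HFD libraries were lower (log2 fold change −0.29, unadjusted p = 0.0358), but the call was lost without HFD replicate 1 (−0.21, unadjusted p = 0.164), NCD replicate 2 (−0.23, unadjusted p = 0.144) or NCD replicate 3 (−0.29, unadjusted p = 0.0609). The 14-3-3 genes Ywhae and Ywhab, whose products hold phosphorylated FOXO in the cytoplasm, had log2 fold changes of 0.08 and −0.04. Of 24 known FOXO target genes, 22 were tested and 0 had an unadjusted p under 0.05. Their median was −0.0042, and they ran from −0.24 (Cat) to 1.02 (Pomc, a hypothalamic and pituitary hormone precursor). Pomc was highest in HFD replicate 3, at 12.2 CPM against 1.16 to 4.63 CPM elsewhere, and had a log2 fold change of 0.0085 without it. The autophagy gene Gabarapl1 and the mitochondrial kinase Pink1, the most abundant targets, had log2 fold changes of −0.0059 and −0.07. The activity of FOXO proteins, which also depends on their phosphorylation, was not measured.

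**Figure D3:**
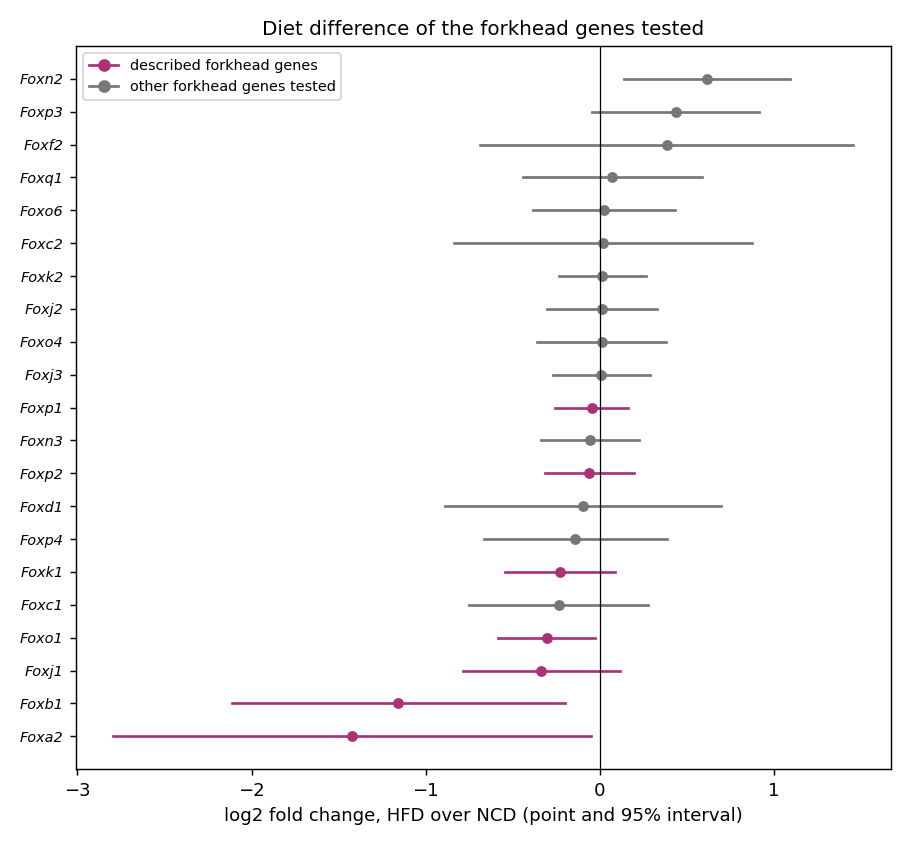
Log2 fold change of HFD over NCD libraries (points) with 95% intervals (lines) for the 7 tested forkhead genes described here (purple) and 14 of the 15 others tested (grey). The intervals of Foxa2, Foxb1 and Foxo1 lie below 0, that of Foxn2 lies above 0, and all others include 0.

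Foxp1 (chr6:98925338-99522721, minus strand) was the member with the most counts, with 3695, 3732 and 4311 in NCD and 3146, 3780 and 2945 in HFD libraries. The levels were 455, 402 and 454 CPM under NCD and 452, 412 and 404 CPM under HFD. The groups overlapped over most of their range. The mean was 437 ± 30.4 CPM (SD, n = 3) in NCD and 423 ± 25.7 CPM (SD, n = 3) in HFD libraries. Its log2 fold change was −0.05 (SE 0.10, 95% interval −0.26 to 0.16, unadjusted p = 0.642), and with each library left out it was between −0.10 and −0.02 (−0.02 without HFD replicate 3).

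Foxp2 (chr6:14901349-15441977, plus strand), known for its role in vocal learning circuits, had 452, 567 and 483 counts in NCD and 415, 462 and 371 counts in HFD libraries. The levels were 55.7, 61.1 and 50.8 CPM under NCD and 59.7, 50.4 and 50.9 CPM under HFD. The groups overlapped here too. The mean was 55.9 ± 5.12 CPM (SD, n = 3) in NCD and 53.7 ± 5.20 CPM (SD, n = 3) in HFD libraries. Foxp2 had a log2 fold change of −0.06 (SE 0.12, 95% interval −0.32 to 0.20, unadjusted p = 0.631), and of −0.03 without HFD replicate 3. The intervals of Foxp1 and Foxp2 both exclude a 1.5-fold difference in either direction.

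The cells that express Foxp1 and Foxp2 were described by 2 marker lists. Of 18 markers of striatal projection neurons, 16 were tested and 0 had an unadjusted p under 0.05, with a median log2 fold change of −0.09. They ran from −0.33 (Isl1) to 0.14 (Tac1), and the most abundant, Bcl11b and Ppp1r1b, had −0.05 and 0.06. The summed level was 1892 to 2011 CPM in NCD and 1896 to 1909 CPM in HFD libraries. Of 12 markers of deep cortical layers, all were tested and 0 had such a p, with a median of −0.02 and log2 fold changes of 0.00041 for Nfib and 0.01 for Rorb, the most abundant. Of 13 partners and targets of FOXP factors, 12 were tested, with a median of −0.03 and 0 at an unadjusted p under 0.05. Mef2c and Ctbp1, the most abundant of these, had log2 fold changes of 0.0025 and −0.01.

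Foxk1 (chr5:142401497-142462011, plus strand) had 368, 432 and 495 counts in NCD and 337, 399 and 226 counts in HFD libraries. The levels were 45.4, 46.5 and 52.1 CPM under NCD and 48.4, 43.5 and 31.0 CPM under HFD. HFD replicate 3 was well below the others, while HFD replicate 1 was above 2 of the 3 NCD libraries. The mean was 48.0 ± 3.59 CPM (SD, n = 3) in NCD and 41.0 ± 8.98 CPM (SD, n = 3) in HFD libraries. The difference on the log2 scale was −0.23 (SE 0.15, 95% interval −0.54 to 0.09, unadjusted p = 0.146). Leaving out HFD replicate 3 gave −0.06 (unadjusted p = 0.588), and leaving out HFD replicate 1 gave −0.36 (unadjusted p = 0.0402). Its relative Foxk2 had 48.1, 54.0 and 51.7 CPM in NCD and 56.8, 51.5 and 47.2 CPM in HFD libraries, a log2 fold change of 0.01. Of 20 partners of FOXK factors and glycolysis genes, all were tested and 0 had an unadjusted p under 0.05, with a median of 0.0017. The glycolytic enzymes Pkm and Hk1, the most abundant, had log2 fold changes of −0.14 and −0.15, and both were lowest in HFD replicate 3.

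**Figure D4:**
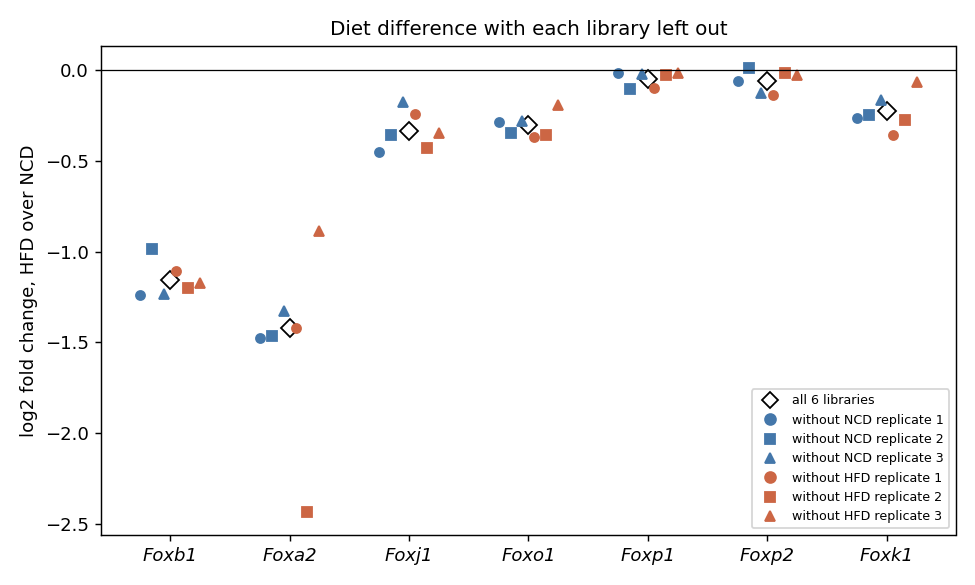
Log2 fold change of HFD over NCD libraries for the 7 tested forkhead genes with all 6 libraries (open diamonds) and with each library left out (filled, blue NCD, orange HFD, shaped by replicate number). Foxb1 stays between −1.24 and −0.98, Foxa2 spans −2.44 to −0.89, and Foxk1 is nearest to 0 without HFD replicate 3.

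HFD replicate 3 was the lowest library for 4 of the 9 genes, Foxa1, Foxa2, Foxo1 and Foxk1, and so for 3 of the 7 tested. It was also the lowest library for 27.2% of all genes tested, more than any other library, with 21.7% for NCD replicate 3 and 11.5% to 14% for the other 4. Across the 6 libraries, log2 CPM correlated at Pearson r = 0.95 between Foxa2 and Foxo1, 0.90 between Foxo1 and Foxk1 and 0.89 between Foxa2 and Foxk1. It was 0.67 between Foxb1 and Foxa2 and 0.07 between Foxp1 and Foxp2. These correlations are a description over 6 libraries that share their depth, composition and diet groups.

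The genes whose pattern over the 6 libraries was most like that of each factor were ranked by Pearson r of log2 CPM among genes with a mean count of at least 50 (10717 genes, or 10718 for Foxb1 and Foxa2). For Foxb1 they were Cartpt (r = 0.981), Abcc1 (0.976) and Ssh3 (0.974). Cartpt, which codes for the CART peptide of feeding circuits, was at 25.1, 35.2 and 30.9 CPM in NCD and 16.8, 17.2 and 16.7 CPM in HFD libraries. Like Foxb1, it was highest in NCD replicate 2 and nearly equal in the 3 HFD libraries. For Foxa2 they were Plbd2 (0.996), Atp5sl (0.996) and Ipo13 (0.993), for Foxj1 Entpd5 (0.994), Xylt2 (0.980) and Adck2 (0.969), and for Foxo1 Cabin1 (0.992), Spg7 (0.991) and Snx32 (0.987). For Foxk1 they were Pik3cd (0.998), Sema5a (0.996) and Grm4 (0.996), for Foxp1 Cep295 (0.991), Adcy6 (0.981) and Fam73b (0.981), and for Foxp2 Arih1 (0.979), Tmem108 (0.973) and Selo (0.966). With 6 libraries and so many genes searched, high values of r are found for every factor.

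The files list 35 other forkhead genes, of which 29 had a count and 15 were tested. Of these 15, 11 had a positive and 4 a negative log2 fold change, with a median of 0.01 and a range from −0.24 (Foxc1) to 0.62 (Foxn2). Foxn2 (chr17:88440711-88490533, plus strand) was the one with an unadjusted p under 0.05, in the direction of higher HFD values, as for 1.71% of all genes. Its counts were 58, 80 and 64 in NCD and 62, 99 and 108 in HFD libraries, or 7.15, 8.61 and 6.73 CPM against 8.91, 10.8 and 14.8 CPM. All HFD libraries were above all NCD libraries, as for 4.31% of all genes, with HFD replicate 3 the highest. It passed the 1.5-fold threshold too, as did 0.53% of all genes in this direction. The log2 fold change was 0.62 (SE 0.22, 95% interval 0.14 to 1.09, unadjusted p = 0.0143), with an adjusted p of 0.979 in edgeR. Leaving out HFD replicate 3 gave 0.40 (unadjusted p = 0.0985).

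The log2 fold change was −0.14 for Foxp4, 0.01 for Foxj2, 0.01 for Foxj3 and −0.06 for Foxn3. The vascular and meningeal factors gave 0.02 (Foxc2), 0.38 (Foxf2), 0.07 (Foxq1) and −0.10 (Foxd1), with wide intervals at these low counts. Foxa3, Foxd2, Foxd3, Foxd4, Foxf1, Foxi1, Foxi2, Foxl1, Foxl2, Foxm1, Foxn1, Foxr1, Foxr2 and Foxs1 had a count in at least 1 library but were not tested, with at most 17 counts in any library. Foxl2, a factor of pituitary gonadotropes, had 8, 10 and 17 counts in NCD and 6, 10 and 7 counts in HFD libraries, and it was not raised in HFD replicate 3. Foxb2, Foxe1, Foxe3, Foxh1, Foxi3 and Foxn4 were at 0 in all libraries.

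Foxp3 (chrX:7573644-7595245, plus strand), the factor of regulatory T cells, showed how the counting treats overlapping genes. It had 60, 71 and 55 counts in NCD and 79, 72 and 66 counts in HFD libraries, and these groups did not overlap on the CPM scale (log2 fold change 0.43, unadjusted p = 0.0725). Ccdc22 lies on the opposite strand and shares 590 exon bases with Foxp3 that reach to within 190 bases of its 3′ end. The counts of Ccdc22 were 61, 71 and 55 in NCD and 79, 72 and 66 in HFD libraries, equal to those of Foxp3 in 5 of the 6 libraries and higher by a single count in NCD replicate 1. The T-cell genes Cd3e, Cd3d, Cd3g and Cd8a, picked after their values were seen, had at most 1 count in any library, and Ctla4 had none. Cd4, which microglia also express, had 30 to 63 counts and Il2ra had 0 to 7 counts. The Foxp3 entry therefore does not measure Foxp3 separately from Ccdc22. In the annotation used here, Foxa1, Foxa2, Foxj1, Foxo3, Foxp2 and Foxk1 share no exon bases with another gene, and the shared bases of Foxp1 lie 150573 bases or more from its 3′ end.

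**Figure D5:**
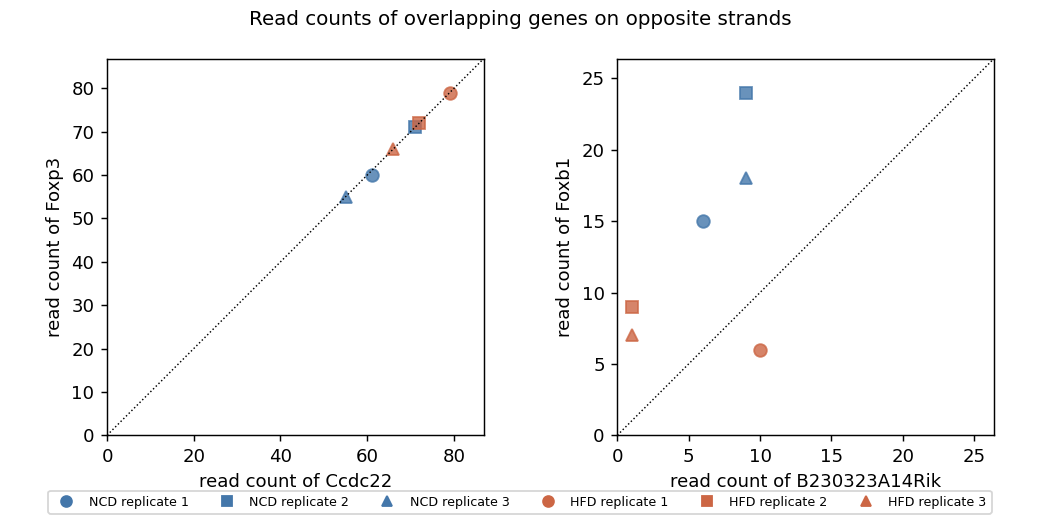
Read counts of Foxp3 against Ccdc22 (left) and of Foxb1 against B230323A14Rik (right) in the 6 libraries, with the line of equal counts dotted. The Foxp3 points fall on the line in 5 of 6 libraries and 1 count off it in the other, whereas the Foxb1 points do not.

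The other cell types of the hemisphere were read beside these results through their markers. All 10 markers each of oligodendrocytes, astrocytes, microglia and macrophages, and neurons were tested, with medians of 0.08, −0.03, 0.11 and −0.03, and 0 of them had an unadjusted p under 0.05. Among the most abundant were Mbp (log2 fold change 0.03), Slc1a2 and Slc1a3 (−0.08 and −0.04), Csf1r and Cx3cr1 (−0.02 and 0.03), and Syt1 and Snap25 (−0.12 and 0.05). Endothelium and pericytes had all 13 markers tested with a median of 0.25 that was 0.11 without HFD replicate 1 and 0.14 without NCD replicate 3. Rgs5 was at an unadjusted p of 0.0365 (log2 fold change 0.32, and 0.23 with an unadjusted p of 0.126 when HFD replicate 3 was left out) and also missed 0.05 without NCD replicate 1 or 3, while Ly6c1 and Slco1a4 gave 0.14 and −0.05. Of 10 choroid plexus markers, all were tested, with a median of 0.15 that was −0.04 without NCD replicate 1 and 0.04 without HFD replicate 2. Kcnj13 had a log2 fold change of 0.59 with an unadjusted p of 0.0271 (0.0675, 0.0803 and 0.0751 when HFD replicate 3, HFD replicate 2 or NCD replicate 1 was left out), and Ttr and Enpp2 had 0.0054 and −0.15. The 11 markers of meninges and perivascular fibroblasts had a median of −0.19, and of −0.03 without HFD replicate 3 and −0.35 without HFD replicate 1, with −0.25 for both Igf2 and Col1a2. Of 9 cerebellum markers, 6 were tested with a median of 0.04, and Calb1 and Zic2 gave 0.09 and −0.18. The part of shifts between cell types in the forkhead values was not tested.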

How the data were processed

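RNA of 3 NCD and 3 HFD forebrain hemispheres was made into QuantSeq 3′ libraries. The authors aligned the single-end reads to mm10 with Bowtie2, took unique and multiple alignments per gene with Bedtools coverage, and deposited whole-number read counts without normalization. Tool versions, gene annotation and use of strand are not given in the sources used here. Counting of multiple and overlapping alignments can give a read to more than 1 gene. Of 23282 genes listed, 18936 had a count, 44 entries repeat a symbol, and Rn45s took 5.55% to 8.75% of counts. Replicates differed by more than sampling noise (chi-square per degree of freedom 3.58 to 17.1).

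Groups came from the diet labels. The fit used edgeR 4.0.16 under R 4.3.3: filterByExpr (minimum count 10, minimum total 15) kept 13771 genes, scaling was by TMM, and HFD was compared with NCD by glmQLFit and glmQLFTest without a covariate, with Benjamini-Hochberg adjustment. The common biological coefficient of variation was 0.126. Standard errors are the log2 fold change over the square root of F. Exact permutation tests were two-sided. Alternatives were DESeq2 1.42.0, limma 3.58.1 on quantile-normalized log2(CPM + 1), no filter, 10 counts in every library, scaling by upper quartile or by library size, leaving out genes over 2% of counts, the replicate number as a block, robust estimation, and leaving out each library in turn. The fits were tested on simulated data. Biopython 1.88 (alignment), matplotlib 3.10.9, scipy 1.17.1, pandas 2.3.3 and numpy 2.4.6 under Python 3.11.15 made the tables and plots. Positions and sequences come from GENCODE vM21 on GRCm38.

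The forkhead genes and the gene lists were chosen with earlier results of these data known. Named are all 9 genes, list members with an unadjusted p under 0.05, the 2 list members with the highest mean CPM, the other forkhead genes with a count, and the 3 most correlated genes. Protein sequences were not used here. Values and sequences of some genes are not reported here.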

Additional observations from a re-analysis of the deposited data

How the results depend on the processing

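Over the alternatives, 0 of the forkhead genes passed an adjusted p of 0.05. Genes passing it numbered 0, against 2 in DESeq2, 23 without a filter and 0 to 3 with each library left out (3 without NCD replicate 3). Without a filter, 156 genes were higher and 240 lower by 1.5-fold with an unadjusted p under 0.05, against 73 and 103. With each library left out there were 60 to 119 higher (119 without NCD replicate 2) and 101 to 145 lower.

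Of the forkhead genes, 2 were lower by 1.5-fold with an unadjusted p under 0.05, against 1 in DESeq2, 1 with the replicate block, 0 with 10 counts in every library, where neither Foxb1 nor Foxa2 could be tested, and 0 to 1 with each library left out. The 3 with an unadjusted p under 0.05 became 1 with 10 counts in every library and 1 to 2 with each library left out. Foxb1 ranged from −1.24 to −0.98 on the log2 scale with each library left out and was past 0.05 in all but those without NCD replicate 2, HFD replicate 1 and HFD replicate 2. Without a filter it was −1.16 (unadjusted p of 0.0385 in edgeR). Its quantile-normalized value was −0.67 (SE 0.12 against 0.45 in the main fit, unadjusted p of 0.000658 in limma). In that setting 1 is added to each CPM before the logarithm. This draws the fold changes of genes near 1 CPM, and their spread between libraries, toward 0. The small limma p-values of Foxb1 and Foxa2 are therefore not read as stronger support, and their separation was fixed by how they passed the filter. Foxa2 ranged from −2.44 to −0.89 with each library left out and was past 0.05 there only without HFD replicate 2. It was −1.47 in DESeq2 (unadjusted p of 0.0518) and −0.77 after quantile normalization (unadjusted p of 0.00929 in limma). Without a filter Foxa2 had −1.43 (unadjusted p of 0.0372 in edgeR). Foxo1 ranged from −0.37 to −0.19 and missed 0.05 without NCD replicate 1, NCD replicate 3 or HFD replicate 3, and after quantile normalization (−0.30). Foxp2 ranged from −0.14 to 0.0106 and changed sign without NCD replicate 2. The adjusted p of Foxb1 ran from 0.696 to 0.9999 over the alternatives. The cause of the other shifts was not tested.

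With the replicate block, Foxa2 had a log2 fold change of −1.54 (unadjusted p of 0.057) and Foxo1 −0.31 (unadjusted p of 0.0493), and 371 genes had an unadjusted p under 0.05 against 507. The labels give only numbers, and deviations of same-numbered libraries correlated at −0.03, 0.05 and −0.06. With 3 libraries per diet these values cannot tell whether same-numbered libraries shared a batch.

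Counts were at most 5 in a library for Foxa1 and Foxo3 and at most 24 for Foxb1 and Foxa2, and counting error limits the precision of their values. Drd2, a listed marker of striatal projection neurons, had 0, 0 and 0 counts in NCD and 0, 1 and 0 counts in HFD libraries. Drd1, of the same list, had 1318, 1236 and 1622 counts in NCD and 930, 1152 and 1146 counts in HFD libraries. A count near 0 in these files is therefore not read as absence of the transcript. The cause of the low counts was not tested.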
